A study of Rattus norvegicus with 20 samples.

Results

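The basement membrane genes described here are 7 genes of rat skeletal muscle: Col4a1 and Col4a2 for collagen IV, Lama2, Lama4 and Lamc1 for laminin chains, and Nid1 and Nid2 for the nidogens. They were taken by name, as the rows of the deposited expression table that carry the symbol of a listed basement membrane gene. The list was drawn up with earlier results of these data known. Shares set against all genes therefore describe these genes and are not independent support. Of 8 listed genes 7 had such a row, out of 21926 gene entries in all. The remaining one, Hspg2, which encodes the proteoglycan perlecan, was not analysed here. Members of 1 protein family or 1 heterotrimer are not independent of each other, and no comparison treats them as replicates.

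A basement membrane is a thin sheet of extracellular matrix on which cells rest. Around each muscle fibre and each capillary, laminin heterotrimers of an alpha, a beta and a gamma chain assemble on the cell surface and bind integrins and dystroglycan. A network of collagen IV heterotrimers lies over the laminin layer and gives the sheet its strength. Nidogens and perlecan bind both networks. In adult muscle the laminin alpha 2 chain belongs to the sheet around the fibre, and the alpha 4 chain mainly to that of blood vessels.

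The study asked how chronic limb ischemia changes gene expression in a mixed, mostly fast muscle and in a slow one. Sprague Dawley rats had either a sham operation or hindlimb ischemia, made by occluding the ilio-femoral segment with an endovascular catheter. Gastrocnemius and soleus were taken from both, which gave 4 groups of 5 libraries: sham gastrocnemius, ischemia gastrocnemius, sham soleus and ischemia soleus. Poly(A) RNA was sequenced in stranded libraries read from both ends. No source used here gives age, sex, the time from operation to sampling, or whether the libraries of a group come from separate rats, so p-values measure the spread between these libraries. Both muscles carry the same library numbers within a treatment, and no source used here says whether equal numbers mark the same rat. The main fits use no pairing. The labels name no transgene and no drug in any group.

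Library totals ran from 53.6 M to 85.4 M counts. All 7 genes passed the filter for testing, at least 1 FPKM (fragments scaled by transcript length and library total) in at least 5 of 20 libraries, which 11693 genes passed. They reached 1 FPKM in all 20 libraries, except Nid2, which did so in 19. The counts behind a value reached 51444, for Col4a1, and the lowest belonged to Nid2 in sham soleus 4, at 0.815 FPKM. One library stood apart, sham soleus 4. It had 8048 genes at 1 FPKM or more, against 9711 to 11789 in the other 19, and its scaling factor was 0.495, against 0.863 to 1.27. Its summed level of muscle fibre markers was 253797 CPM (counts scaled to a common library total with TMM factors), the highest of all libraries. Results that rest on it are given with and without it. Its part in them beyond these values was not tested. The muscle markers were present in every library, and slow fibre genes such as Myh7 and Tnni1 separated soleus from gastrocnemius: all 10 of the slow list were called lower in sham gastrocnemius, and all 9 tested of the fast list higher.

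Of the collagen IV genes, Col4a1 had the highest mean level of all 7 genes in every group. Col4a1 and Col4a2 encode the alpha 1 and alpha 2 chains, which join in a fixed proportion in the common collagen IV trimer. The genes lie head to head. In the table Col4a1 is placed on chromosome 16 from 83522162 to 83632153 on the plus strand, and Col4a2 from 83387364 to 83438561 on the minus strand, in a build that no source used here names. RefSeq (build GRCr8) places their starts 77 bases apart, so that the upstream windows of both genes, 250 bases before to 50 after the start, share 176 bases. This stretch is shown because the levels of both genes moved together in these libraries. It is printed on the plus strand, in the direction of Col4a1, at chr16:84885471-84885646, and capitals mark CCAAT boxes (CCAAT, or ATTGG for the other strand) and GC boxes (GGGCGG or CCGCCC).
Col4a2-Col4a1 shared: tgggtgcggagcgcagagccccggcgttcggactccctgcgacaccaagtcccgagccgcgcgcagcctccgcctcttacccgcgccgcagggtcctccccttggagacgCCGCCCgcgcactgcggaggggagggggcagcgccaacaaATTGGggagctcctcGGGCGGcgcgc
The shared stretch held 1 CCAAT box and 2 GC boxes, and neither TATAAA nor the hypoxia response core ACGTG, each searched on both strands. Of 33469 rat windows of 300 bases in RefSeq, each longer than this stretch, 37.5% held a CCAAT box, 33.1% a GC box, 14.2% TATAAA and 19.3% ACGTG. These matches describe letters and not binding. The Col4a2 model of the table spans 51.2 kb, against 135.8 kb in RefSeq, and its counts refer to the shorter model.

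Col4a1 was higher in ischemia in both muscles by the fitted values, and neither difference passed the test. In library order 1 to 5, sham gastrocnemius held 197, 231, 98.3, 108 and 154 CPM, and ischemia gastrocnemius 614, 157, 282, 328 and 244 CPM. Of the ischemia libraries, 1 lay far above the others and 1 inside the sham range, so the groups overlapped. The means were 157 ± 56.8 and 325 ± 173 CPM (SD, n = 5), and the fit put the log2 fold change at 1.05 with an SE of 0.31, which every later ± on a log2 fold change also is (edgeR adjusted p = 0.716). Without ischemia gastrocnemius 1 the log2 fold change was 0.70. In soleus the sham libraries held 283, 234, 284, 224 and 248 CPM and the ischemia libraries 543, 285, 369.9, 608 and 344 CPM. Every ischemia soleus library lay above every sham one, the closest pair at 285 against 284. The means were 255 ± 27.7 and 429.7 ± 138 CPM, and the log2 fold change was 0.76 ± 0.31 (edgeR adjusted p = 0.127), or 0.71 without sham soleus 4.

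Col4a2 followed the same order of libraries. Its levels were 89.0, 108, 46.1, 53.7 and 76.7 CPM in sham gastrocnemius and 281, 77.3, 135, 142 and 108 CPM in ischemia gastrocnemius. These groups overlapped, and the fitted log2 value was 0.99 ± 0.32 (edgeR adjusted p = 0.728). In soleus the sham values were 138, 120.3, 146, 73.7 and 122 CPM and the ischemia values 253, 137, 201, 318 and 166 CPM. The lowest ischemia library fell within the sham range, and the log2 fold change was 0.84 ± 0.32 (edgeR adjusted p = 0.105), or 0.71 without sham soleus 4. After the group means were removed, log2 levels of Col4a1 and Col4a2 had a Pearson correlation of 0.96 over the 20 libraries, the highest of the 21 pairs among the 7 genes, and 0.99 over 19 without sham soleus 4. This is a description, and the libraries share their scaling.

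**Figure D1:**
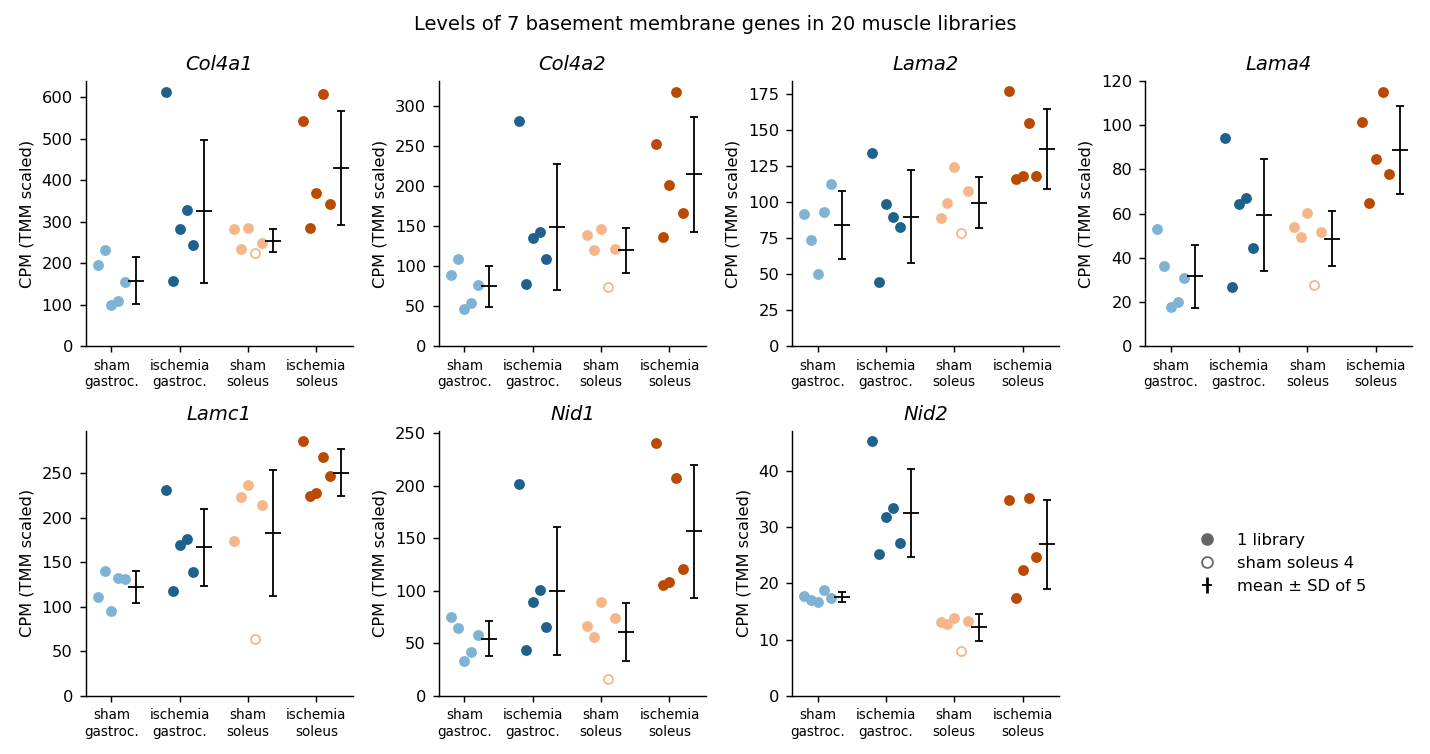
Level of each gene in every library, in CPM scaled by TMM factors on a linear axis from 0, with 1 point per library in the order 1 to 5 and each group's mean ± SD (n = 5) beside it; the open circle is sham soleus 4. For Nid2 all 5 ischemia points lie above all 5 sham points in both muscles (25.3 to 45.3 against 16.7 to 18.9 CPM in gastrocnemius, 17.4 to 35.1 against 7.88 to 13.9 CPM in soleus).

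Laminin alpha chains set where a laminin is used. Lama2 encodes the alpha 2 chain, the main one of the adult muscle fibre, whose loss causes a congenital muscular dystrophy in humans, and Lama4 the alpha 4 chain of vessel walls. In the table Lama2 lies on chromosome 1 from 18491384 to 19143269 and Lama4 on chromosome 20 from 44060731 to 44209614, both on the plus strand. Each model overlaps an entry on the opposite strand, AABR07000583.1 in Lama2 and Fam229b in Lama4, over 672 and 2137 bases, and no source used here says whether counting used the strand, so both counts are uncertain to that extent. The RefSeq GRCr8 windows, 250 bases before to 50 after the start, are shown because the ratio of these genes is compared further on; capitals mark CCAAT boxes, GC boxes and TATAAA, as above. The Lama2 window is chr1:19491896-19492195 and the Lama4 window chr20:43946648-43946947, both on the plus strand.
Lama2: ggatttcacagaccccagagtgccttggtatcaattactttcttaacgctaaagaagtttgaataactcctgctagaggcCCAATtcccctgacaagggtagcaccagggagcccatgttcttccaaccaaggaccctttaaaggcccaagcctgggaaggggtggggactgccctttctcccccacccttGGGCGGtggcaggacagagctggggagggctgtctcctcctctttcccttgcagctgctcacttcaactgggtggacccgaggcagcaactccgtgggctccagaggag
Lama4: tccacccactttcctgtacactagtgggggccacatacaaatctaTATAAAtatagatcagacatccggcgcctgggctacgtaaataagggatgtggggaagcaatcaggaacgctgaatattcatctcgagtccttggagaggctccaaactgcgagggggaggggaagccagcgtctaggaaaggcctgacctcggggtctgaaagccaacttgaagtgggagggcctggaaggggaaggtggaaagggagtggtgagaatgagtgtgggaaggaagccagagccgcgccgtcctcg
The Lama2 window held 1 CCAAT box, 1 GC box and no TATAAA. The Lama4 window held 1 TATAAA, neither of the other boxes, and like Lama2 no ACGTG.

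Lama2 was the member with the smallest fitted response in gastrocnemius. Sham libraries held 91.8, 73.5, 49.7, 93.0 and 112 CPM and ischemia libraries 134, 44.6, 98.4, 89.3 and 82.7 CPM. The ranges lay almost on top of each other, with a log2 fold change of 0.10 ± 0.25 (edgeR adjusted p = 0.986); 2 SE to either side runs from -0.40 to 0.59. The sign turned to -0.07 without ischemia gastrocnemius 1 and to -0.04 without sham gastrocnemius 3. In soleus sham libraries held 89.1, 99.0, 124, 78.1 and 107 CPM and ischemia libraries 177, 116, 118, 155 and 118 CPM. The highest sham library exceeded 3 of the 5 ischemia libraries, and the log2 fold change was 0.46 ± 0.25 (edgeR adjusted p = 0.233), or 0.38 without sham soleus 4.

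Lama4 lay higher in ischemia by fitted values of similar size in both muscles. Sham gastrocnemius held 53.3, 36.4, 17.6, 19.9 and 30.7 CPM and ischemia gastrocnemius 94.1, 26.6, 64.1, 67.3 and 44.3 CPM. The groups overlapped, ischemia libraries 2 and 5 lying below sham library 1, with a log2 fold change of 0.91 ± 0.32 (edgeR adjusted p = 0.728). Sham soleus held 54.1, 49.2, 60.3, 27.8 and 51.7 CPM and ischemia soleus 102, 64.8, 84.6, 115 and 77.97 CPM. These groups did not overlap, with a log2 fold change of 0.87 ± 0.32 (edgeR adjusted p = 0.097), or 0.72 ± 0.32 without sham soleus 4 (edgeR adjusted p = 0.162).

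Lamc1 encodes the gamma 1 chain, which most laminins of muscle and vessels share, so it does not tell the alpha chains apart. In the table it lies on chromosome 13 from 70658707 to 70783515 on the minus strand. Sham gastrocnemius held 111, 140.2, 95.4, 132 and 132 CPM and ischemia gastrocnemius 231, 118, 169, 176 and 139 CPM, which overlap. Sham soleus held 174, 223, 237, 63.4 and 215 CPM and ischemia soleus 287, 224, 228, 268 and 247 CPM, where sham library 4 was the lowest of all 20 and the groups overlapped at 237 against 224. The log2 fold change was 0.45 ± 0.26 in gastrocnemius (edgeR adjusted p = 0.832) and 0.46 ± 0.26 in soleus (edgeR adjusted p = 0.257). Without sham soleus 4 the soleus value fell to 0.24 ± 0.16 (edgeR adjusted p = 0.367).

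The nidogens link the laminin and the collagen IV network. Nid1 lies on chromosome 17 from 90553394 to 90627101 and Nid2 on chromosome 15 from 4894213 to 4951917 in the table, both on the minus strand. Nid1 held 75.0, 64.3, 32.8, 42.1 and 57.4 CPM in sham gastrocnemius and 202, 43.9, 88.9, 100.4 and 65.3 CPM in ischemia gastrocnemius. The ischemia set had a coefficient of variation of 60.9%, the highest of any gene and group here, and overlapped the sham set. The log2 fold change was 0.88 ± 0.42 (edgeR adjusted p = 0.799), and 0.47 without ischemia gastrocnemius 1. In soleus sham libraries held 66.6, 56.1, 89.6, 16.0 and 74.5 CPM and ischemia libraries 241, 105, 108, 207 and 121 CPM. The groups did not overlap, and Nid1 had the largest fitted response of the 7 genes in soleus, 1.37 ± 0.42 (edgeR adjusted p = 0.068). Without sham soleus 4 it was 1.13 ± 0.38 (edgeR adjusted p = 0.074), so the call was missed either way.

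Nid2 rose in ischemia soleus and was the only one of the 7 genes that the main edgeR fit, on all 20 libraries, called in any comparison. Sham soleus held 13.1, 12.8, 13.9, 7.88 and 13.3 CPM and ischemia soleus 34.9, 17.4, 22.5, 35.1 and 24.7 CPM. The groups did not overlap, and 4 of the 5 sham libraries lay between 12.8 and 13.9 CPM. The means were 12.2 ± 2.44 and 26.9 ± 7.86 CPM (SD, n = 5), a fitted 2.21-fold difference with a log2 value of 1.14 ± 0.20 (edgeR adjusted p = 0.035). Without sham soleus 4 it was 1.023 ± 0.19 (edgeR adjusted p = 0.010). The call is close to the threshold: leaving out 1 library ended it for ischemia soleus 4 (adjusted p = 0.128), ischemia soleus 1 (0.093), sham soleus 2 (0.058), sham gastrocnemius 5 (0.054), sham soleus 1 (0.053), ischemia gastrocnemius 3 (0.052) and ischemia gastrocnemius 5 (0.051), with a log2 fold change of at least 1.019 in all of them. Over 32 alternatives the log2 fold change ran from 0.93 to 1.48, and 23 kept the call.

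In gastrocnemius Nid2 held 17.7, 17.1, 16.7, 18.9 and 17.5 CPM in sham and 45.3, 25.3, 31.8, 33.4 and 27.1 CPM in ischemia. The sham libraries were the most uniform group of 5 of any gene here, with a coefficient of variation of 4.73%, and all 5 ischemia libraries lay above them. The log2 fold change was 0.89 ± 0.20, a 1.86-fold difference. With all libraries the edgeR adjusted p was 0.692, and none of the 11693 genes had a smaller one in that comparison. The unadjusted edgeR p was 0.0003. Sham soleus 4 is part of the same fit. Without that library the log2 fold change was 0.89 ± 0.17 and the edgeR adjusted p was 0.077. DESeq2 gave Nid2 an adjusted p of 0.040 in gastrocnemius and 0.0001 in soleus.

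Read together, all 7 genes had a positive fitted response to ischemia in both muscles, with a median log2 fold change of 0.89 in gastrocnemius and 0.84 in soleus, against -0.00 and -0.04 over all genes tested. In gastrocnemius edgeR called 0 of the 7, as it called 0% of all genes, and 5 of 7 had an unadjusted p below 0.05, against 6.22% of all genes. The edgeR adjusted p of the 7 ran from 0.692 to 0.986 there with all libraries. Leaving out sham soleus 4, it ran from 0.077 to 0.857, with log2 fold changes nearly unchanged. DESeq2 called 1 of the 7 there, Nid2, against 0.077% of genes called higher. In soleus edgeR called 1 of 7, against 1.03% of genes called in either direction and 0.53% called higher, and 5 of 7 had an unadjusted p below 0.05, against 27.8% of genes. DESeq2 called 2, Nid1 and Nid2, against 5.13% of genes called higher. Without sham soleus 4, edgeR again called Nid2 alone in soleus, against 2.63% of genes called higher. A fit that weights each library by its quality (limma voom) gave sham soleus 4 a weight of 0.032, against 0.388 to 3.58 in the others. It called 4 of 7 higher in gastrocnemius, Nid2, Lama4, Col4a1 and Col4a2, against 2.91% of genes, and 5 of 7 in soleus, the same 4 and Nid1, against 13.8%. Lama2 and Lamc1 were called in neither muscle by any of these tools. The ischemia libraries lay wholly above the sham libraries for 1 of 7 genes in gastrocnemius, against 0.847% of genes. In soleus they did so for 4 of 7, Nid1, Nid2, Col4a1 and Lama4, against 6.89% of genes, and for the same 4 without sham soleus 4, against 11%. In bulk muscle, more cells of a type and more RNA per cell cannot be told apart.

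**Figure D2:**
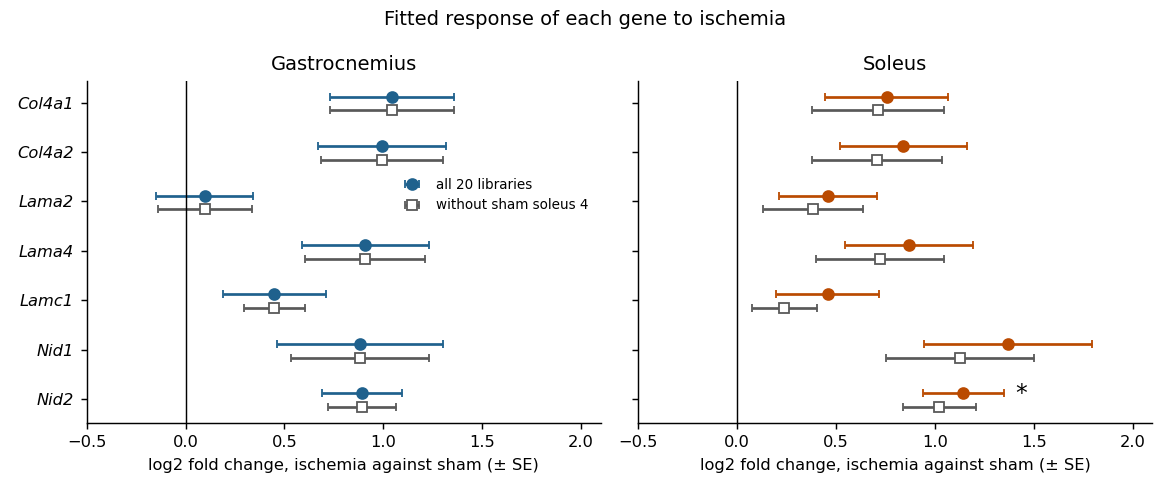
Fitted log2 fold change of ischemia against sham for each gene, in gastrocnemius (left) and soleus (right), with bars of 1 SE; filled circles use all 20 libraries, open squares leave out sham soleus 4, and the star marks an edgeR adjusted p below 0.05. All 7 values lie above 0 in both muscles, from 0.10 for Lama2 in gastrocnemius to 1.37 for Nid1 in soleus, and only Nid2 in soleus has a star.

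The response did not differ detectably between the muscles. EdgeR called 0 of 7 genes for the response of gastrocnemius minus that of soleus, as it called 0% of all genes, and none of the 7 had an unadjusted p below 0.05; DESeq2 also called 0 of 7, against 0.0171% of genes. The difference in log2 response was -0.49 for Nid1, -0.36 for Lama2, -0.25 for Nid2, -0.01 for Lamc1, 0.04 for Lama4, 0.15 for Col4a2 and 0.29 for Col4a1. With 2 SE to either side these run from -1.66 to 0.69 for Nid1 and from -0.59 to 1.17 for Col4a1, so that a difference as large as the response itself lies within these limits. The sign held in the alternatives run for Nid1, Nid2 and Lama2 only. Over them the difference ran from -0.06 to 0.47 for Col4a1, -0.21 to 0.36 for Col4a2, -0.31 to 0.31 for Lama4 and -0.48 to 0.21 for Lamc1, the last value being that without sham soleus 4.

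Compared on FPKM, which divides by transcript length, the 7 genes kept nearly 1 order in all groups. In sham gastrocnemius the means were 20.8 for Col4a1, 17.6 for Lamc1, 13.2 for Col4a2, 8.27 for Nid1, 7.66 for Lama2, 4.60 for Lama4 and 3.32 FPKM for Nid2. In sham soleus without library 4 the same order ran from 41.1 FPKM for Col4a1 and 36.5 for Lamc1 to 9.35 for Lama4 and 3.00 for Nid2. In ischemia soleus Col4a1 had 76.2 ± 24.8 FPKM, Col4a2 50.7 ± 17.4, Lamc1 48.7 ± 4.96, Nid1 31.98 ± 12.6, Lama4 17.4 ± 3.98, Lama2 16.8 ± 3.23 and Nid2 6.88 ± 2.00 (SD, n = 5). In both ischemia groups Col4a2 stood above Lamc1 and Lama4 above Lama2 by the means, the reverse of both sham groups. In the ischemia groups these neighbours differed by less than their SD. In sham soleus without library 4 the gap was wider than either SD, with Lamc1 at 36.5 ± 4.75 FPKM against Col4a2 at 27.4 ± 2.81, and Lama2 at 11.4 ± 1.64 against Lama4 at 9.35 ± 0.882 (SD, n = 4). In sham gastrocnemius Lamc1 had 17.6 ± 3.15 FPKM and Col4a2 13.2 ± 4.90, a gap narrower than the SD of Col4a2. Lama2 at 7.66 ± 2.21 against Lama4 at 4.60 ± 2.13 differed there by more than either SD (n = 5).

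Ratios within a library do not depend on how libraries are scaled. The ratio of Col4a2 to Col4a1 was nearly constant: its geometric means were 0.635 in sham gastrocnemius, 0.613 in ischemia gastrocnemius, 0.613 in sham soleus and 0.662 in ischemia soleus. None of its 4 comparisons passed the test (two-sided exact permutation test, p adjusted over 12 tests from 0.262 to 0.960). Sham soleus 4 alone had 0.438, against 0.578 to 0.723 in the other 19 libraries.

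The ratio of Lama4 to Lama2 was 0.925, 0.791, 0.565, 0.341 and 0.437 in sham gastrocnemius and 1.12, 0.953, 1.04, 1.20 and 0.853 in ischemia gastrocnemius. One sham library reached into the ischemia range. In sham soleus it was 0.969, 0.793, 0.776, 0.567 and 0.769, and in ischemia soleus 0.916, 0.892, 1.14, 1.19 and 1.06, where again 1 sham library overlapped. The geometric means were 0.573 and 1.03 in gastrocnemius and 0.764 and 1.03 in soleus. By FPKM, Lama4 RNA thus stood about level with Lama2 RNA in both ischemic muscles. The log2 ratio was higher in ischemia by 0.84 ± 0.28 in gastrocnemius (exact permutation p = 0.0159) and by 0.43 ± 0.15 in soleus (exact permutation p = 0.0238). Adjusted over the 12 tests both gave 0.0952, which misses 0.05. With 1 library left out, the soleus difference ran from 0.33, without sham soleus 4, to 0.52, and the gastrocnemius difference from 0.65 to 1.01.

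The ratio of Nid2 to Nid1 differed mainly between muscles. In ischemia gastrocnemius it was 0.280, 0.720, 0.447, 0.415 and 0.518, and in ischemia soleus 0.181, 0.207, 0.259, 0.212 and 0.256. These groups did not overlap, and the log2 ratio was higher in gastrocnemius by 1.04 ± 0.24. The exact permutation p was 0.00794, the smallest that 5 against 5 libraries allow, and 0.0952 adjusted over the 12 tests. In sham the difference had the same sign, 0.57 ± 0.36 (exact permutation p = 0.151, adjusted 0.362), with sham soleus 4 at 0.613 far above the 0.193 to 0.284 of its group. Without that library the sham difference was 0.85. Ischemia against sham gave 0.11 ± 0.31 in gastrocnemius (exact permutation p = 0.738) and -0.36 ± 0.31 in soleus (exact permutation p = 0.278), or -0.09 in soleus without sham soleus 4.

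**Figure D3:**
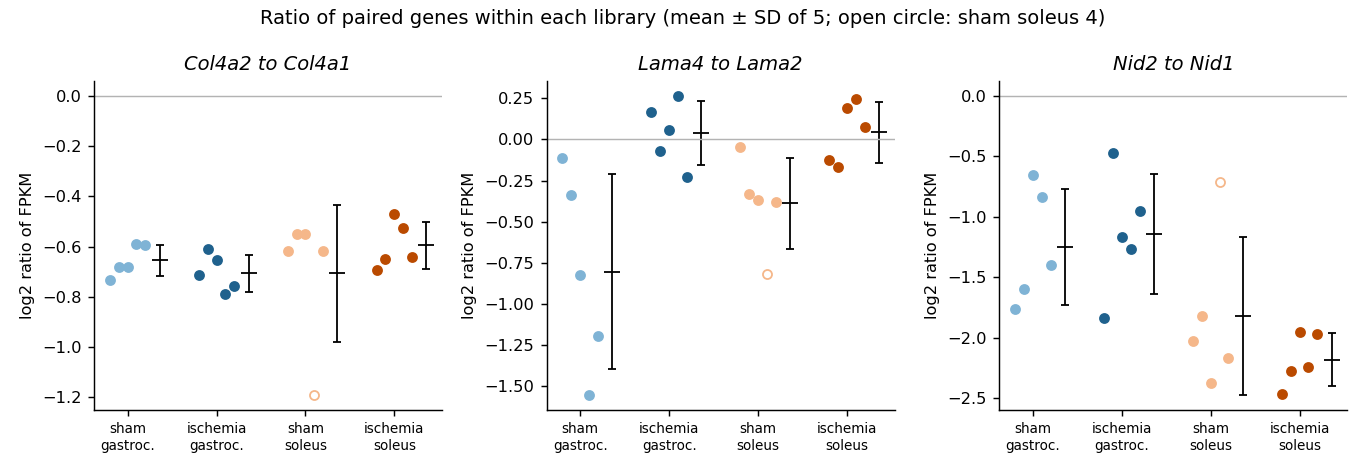
Log2 ratio of the FPKM of 2 genes within each library, with 1 point per library, each group's mean ± SD beside it, and an open circle for sham soleus 4; the grey line marks equal FPKM. Lama4 to Lama2 averages -0.80 and -0.39 in the sham groups and 0.04 and 0.05 in the ischemia groups, while the group means of Col4a2 to Col4a1 stay between -0.71 and -0.59.

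Gastrocnemius against soleus was compared within each treatment. In sham, 6 of the 7 genes had lower fitted values in gastrocnemius, with log2 differences of -0.69 ± 0.31 for Col4a1, -0.68 ± 0.32 for Col4a2, -0.62 ± 0.32 for Lama4, -0.58 ± 0.26 for Lamc1, -0.24 ± 0.25 for Lama2 and -0.16 ± 0.41 for Nid1. Nid2 had the opposite sign, 0.53 ± 0.20, and its 5 sham gastrocnemius libraries (16.7 to 18.9 CPM) all lay above the 5 of sham soleus (7.88 to 13.9 CPM), also without sham soleus 4. EdgeR called 0 of 7, with adjusted p from 0.063 for Nid2 to 0.814 for Nid1, although 24.9% of all genes were called. Of the 7, 4 had an unadjusted p below 0.05, against 37.6% of genes. An edgeR fit with a block per number within treatment, as if equal numbers marked the same rat, called 2 of 7. They were Nid2 (0.55, edgeR adjusted p = 0.040) and Col4a1 (-0.76, edgeR adjusted p = 0.038), among 2161 genes called in all. DESeq2 called Nid2 alone (adjusted p = 0.0415), against 28.2% of genes. No member lay wholly lower in gastrocnemius, against 7.69% of genes, and 1 lay wholly higher, against 9.1%.

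Lamc1 was the member whose muscle difference turned on sham soleus 4. Without that library it was called lower in gastrocnemius in sham, by a log2 difference of -0.80 ± 0.16 (edgeR adjusted p = 0.001), against 17.1% of genes called lower. The same fit called it lower in ischemia, -0.59 ± 0.16 (edgeR adjusted p = 0.008), against 15.1% of genes; the log2 difference is the one with all libraries, and its SE fell from 0.26. With all libraries the ischemia value was -0.59 ± 0.26 (edgeR adjusted p = 0.148). In ischemia the others were -0.64 ± 0.42 for Nid1, -0.61 ± 0.25 for Lama2, -0.58 ± 0.32 for Lama4, -0.53 ± 0.32 for Col4a2, -0.40 ± 0.31 for Col4a1 and 0.27 ± 0.20 for Nid2. EdgeR called 0 of 7 in ischemia, against 12.6% of genes, 2 of 7 had an unadjusted p below 0.05, near the 27.0% of all genes, and DESeq2 called 0 of 7, against 18.8%. None of the 7 lay wholly lower in gastrocnemius there, against 9.68% of genes.

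Fibre type moved with several of these values. A slow minus fast score, the mean log2 CPM of 10 slow fibre genes minus that of 9 fast ones, ran from -7.84 to -1.26 in sham gastrocnemius and from -8.12 to -1.25 in ischemia gastrocnemius. All 10 slow genes were higher and all 9 fast genes lower in ischemia gastrocnemius by fitted values, with none called, while in ischemia soleus all 10 slow genes were lower (median -0.77, or -0.45 without sham soleus 4). The libraries with the lowest scores, sham gastrocnemius 3 and ischemia gastrocnemius 2, had the lowest level of all 7 genes, Nid2 included, in their groups. Over the 10 gastrocnemius libraries, with group means removed, level and score had Pearson correlations from 0.43 for Nid2 to 0.83 for Col4a1. Over the 8 libraries left without the lowest scores they ran from -0.16 for Lama2 to 0.65 for Col4a1, with -0.04 for Nid2. With the score as a covariate the gastrocnemius response of the 7 genes ran from -0.11 for Lama2 to 0.90 for Nid2, with a median of 0.67, and that of soleus from 0.49 to 1.47, with a median of 0.95. Nid2 was 0.90 with the score and 0.89 without it in gastrocnemius, and 1.14 both ways in soleus (edgeR adjusted p = 0.017 with it). Since the score separates the muscles, it and the muscle difference cannot be told apart.

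**Figure D4:**
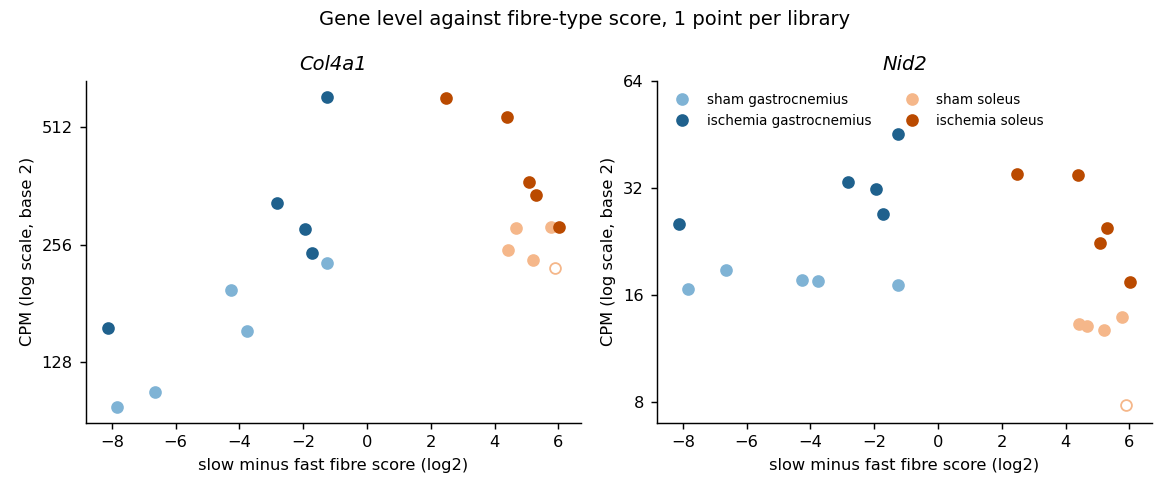
Level of Col4a1 (left) and Nid2 (right) in CPM, on a log axis of base 2, against the slow minus fast fibre score in log2 units, with 1 point per library and an open circle for sham soleus 4. In gastrocnemius the lowest Col4a1 levels, 98.3 CPM in sham and 157 CPM in ischemia, belong to the libraries with scores of -7.84 and -8.12, and so do the lowest Nid2 levels, 16.7 and 25.3 CPM, although the sham Nid2 levels span only 16.7 to 18.9 CPM.

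Markers of other cell types were summed per library in CPM. The 15 tested of 17 endothelial markers summed to 208 to 431 in sham gastrocnemius, 365 to 591 in ischemia gastrocnemius, 329 to 428 in sham soleus and 405 to 583 in ischemia soleus. All 15 were higher by fitted values in ischemia gastrocnemius (median log2 fold change 0.63) and 11 in ischemia soleus (0.46), with none called, or 1 in each without sham soleus 4. The 10 fibroblast markers summed to 1376 to 7422 and 1719 to 7609.8 in sham and ischemia gastrocnemius, and to 2374 to 3887 and 6669.5 to 11932 in sham and ischemia soleus, where the groups did not overlap, all 10 were higher (median 1.21) and 1 was called, or 4 without sham soleus 4. Mural markers ran from 355 to 615 over all groups, with 8 of 10 higher in gastrocnemius and 7 of 10 in soleus and none called. The 10 macrophage markers summed to 68.3 to 276 and 60.3 to 331 in sham and ischemia gastrocnemius. In soleus they summed to 92.2 to 552 in sham, the highest in sham soleus 4, and 264 to 427 in ischemia. All 10 were higher by fitted values in ischemia gastrocnemius (median 0.37) and 8 in ischemia soleus (0.75), with none called. Without sham soleus 4 all 10 were higher in soleus (1.09), again with none called. Summed muscle fibre markers ran from 60622 to 70046 in ischemia soleus, below the 81318 to 253797 of sham soleus. The 4 tested Schwann cell markers and the 4 tested adipocyte markers were all higher by fitted values in ischemia soleus (medians 1.43 and 1.48). In ischemia gastrocnemius 3 of the Schwann cell markers (median 0.49) and 2 of the adipocyte markers (-0.01) were higher. None of either list was called in ischemia in either muscle, and the summed levels of sham and ischemia overlapped. No marker of these lists was at 0 in all libraries. The part of these cell types in the values of the 7 genes was not tested.

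The other components of the sheet gave fitted values in the same direction. Of 29 listed, 20 were tested, and 19 of them were higher in ischemia gastrocnemius (median log2 fold change 0.64) and 17 in ischemia soleus (0.56), against -0.00 and -0.04 over all genes. EdgeR called none in gastrocnemius and 1 in soleus, Smoc2, a calcium-binding matricellular protein, which rose from 41.5 ± 6.36 to 99.96 ± 21.7 CPM (log2 fold change 1.27 ± 0.28, adjusted p = 0.042). Without sham soleus 4 it called 3 of these genes higher in soleus, against 2.63% of all genes, and the median was 0.43. Between muscles, Lamb2, the laminin beta 2 chain, was lower in gastrocnemius in sham (-0.57 ± 0.13, edgeR adjusted p = 0.003) and in ischemia (-0.62 ± 0.13, adjusted p = 0.004), also without sham soleus 4. Tinagl1 (-1.94, or -1.06 without sham soleus 4) and Ntn4 (-1.59, or -1.86), a netrin of basement membranes, were called lower in sham and Fbln2 (-1.11), a fibulin, in ischemia. In all, 5 of the 20 were called lower in sham and 2 in ischemia, or 5 and 8 without sham soleus 4. Of all 11693 genes, 1581 were called lower in sham and 553 in ischemia, or 17.1% and 15.1% without sham soleus 4.

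The lists for making collagen IV and for the laminin-binding sugar had medians nearer to that of all genes. Of 19 tested of 22 genes for folding, modifying and crosslinking collagen IV, 12 were higher in ischemia gastrocnemius (median 0.06) and 14 in ischemia soleus (0.18), with none called. The smallest p values there belonged to Pxdn, the peroxidase that crosslinks collagen IV by sulfilimine bonds (1.36 ± 0.46 in gastrocnemius, edgeR adjusted p = 0.728), and Mia2 (-0.49 in soleus, adjusted p = 0.052; -0.56 and 0.010 without sham soleus 4), and Loxl2, a lysyl oxidase, had 1.86 ± 0.57 in soleus (adjusted p = 0.067; 0.041 without sham soleus 4). Of 12 genes for the laminin-binding sugar on dystroglycan, 3 were higher and 9 lower in ischemia in each muscle, with medians of -0.08 and -0.25 and none called. B3galnt2, which adds a sugar to dystroglycan, had the smallest p of them in soleus, -0.71 (edgeR adjusted p = 0.063), and was called without sham soleus 4 (-0.89, adjusted p = 0.008). Between muscles, Pomgnt1 was called lower in gastrocnemius in sham and in ischemia (-0.98 and -0.91), and Pomk, a kinase of the pathway, higher in sham (0.69). Leaving out sham soleus 4, the sham values were -0.78 and 0.65. Of the folding genes, Sec24d, a coat protein of the vesicles that carry procollagen, was lower in gastrocnemius in sham (-1.54) and in ischemia (-1.40), and Mia2 higher in both (0.43 and 0.71). P4ha1, a prolyl hydroxylase subunit, was higher in sham (1.18) and Plod2, a lysyl hydroxylase, lower in ischemia (-1.17). Without sham soleus 4 the sham values were -1.61 for Sec24d, 0.36 for Mia2 and 0.99 for P4ha1.

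Receptors and proteases were the remaining lists. Of 18 tested of 21 receptors, 15 were higher in ischemia gastrocnemius (median 0.15) and 9 in ischemia soleus (-0.03), with none called. Itga6, an integrin subunit that binds laminin, had the smallest p in gastrocnemius (0.91 ± 0.30, edgeR adjusted p = 0.728). Of 16 tested of 18 proteases and inhibitors, 14 were higher in each muscle, with a median of 0.32 in gastrocnemius and 0.79 in soleus. Adamts5, a protease of matrix proteoglycans, rose in soleus from 6.42 ± 2.98 to 22.9 ± 5.37 CPM (log2 value 1.83 ± 0.38, edgeR adjusted p = 0.039), and Htra1, a secreted serine protease, from 25.5 ± 2.84 to 47.2 ± 13.2 CPM (0.89 ± 0.19, adjusted p = 0.042). With sham soleus 4 left out, 7 of the 16 were called higher in soleus, in a fit that called 2.63% of all genes higher. Of 12 genes that link receptors to the cell's own skeleton, 9 were higher in ischemia gastrocnemius and 6 in ischemia soleus, with none called.

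Between muscles, receptors were called mostly lower in gastrocnemius, 6 lower and 1 higher of 18 in sham and 3 lower and 1 higher in ischemia. Of all 11693 genes, 1581 were called lower and 1330 higher in sham, and 553 lower and 920 higher in ischemia. Leaving out sham soleus 4, the receptors had 7 lower and 2 higher in sham and 4 lower and 2 higher in ischemia. Among the receptors called with all libraries were the collagen receptor kinases Ddr1 (-1.34 in sham) and Ddr2 (-1.39 in ischemia) and the syndecans, heparan sulfate carriers of the cell surface: Sdc4 (-2.16 and -1.58), Sdc3 (-1.24 in sham) and Sdc2 (-1.18 in ischemia). Mmp15, a membrane-bound protease, was higher in gastrocnemius in both (0.81 and 1.07), while the protease inhibitor Timp2 (-1.06) and the cathepsin Ctsl (-0.72) were lower in ischemia, and Htra1 was higher in sham (0.60). On the cell side Tln1, which ties integrins to actin, was lower in both (-1.67 and -1.09), Vcl, its partner, higher in sham (0.75) and Dtna, a dystrobrevin, lower in sham (-0.67). Without sham soleus 4 the sham values of Ddr1 (-1.02), Sdc4 (-1.89), Sdc3 (-1.14), Tln1 (-1.27), Vcl (0.63) and Dtna (-0.48) were smaller in size. Those of Mmp15 (1.16) and Htra1 (0.64) were larger. All values in this comparison are log2 differences with an edgeR adjusted p below 0.05.

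Genes whose levels followed the members most closely within groups were named by Pearson correlation of log2 CPM after the 4 group means were removed, over 20 libraries. Lamb1, the laminin beta 1 chain that pairs with the gamma 1 chain, was the most like the mean of the 7 genes (0.97), and again without sham soleus 4 (0.96). It was followed by the unnamed entry AABR07068316.1 (0.96), Matn2, a matrilin (0.95), and the collagens Col5a2 (0.94) and Col6a1 (0.94). Lamb1 was 36.2 ± 10.8 and 69.9 ± 34.1 CPM in sham and ischemia gastrocnemius (log2 fold change 0.95 ± 0.35, edgeR adjusted p = 0.768) and 43.7 ± 15.9 and 78.8 ± 27.7 CPM in soleus (0.85 ± 0.35, adjusted p = 0.128). The gene most like each member was Col5a3 for Col4a1 (0.91), Lamb1 for Col4a2 (0.92) and for Nid2 (0.87), Plxdc2 for Lama2 (0.93), Hk1 for Lama4 (0.96), Ctbp2 for Lamc1 (0.97) and Kirrel1 for Nid1 (0.96). Leaving out sham soleus 4, the first gene was another one for each member but Col4a2. Among the 21 pairs of members themselves the correlation ran from 0.48, for Col4a1 with Lamc1, to 0.96, with a median of 0.76, and without sham soleus 4 from 0.62 to 0.99, again with a median of 0.76.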

How the data were processed

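RNA of 20 rat muscle libraries in 4 groups of 5 was sequenced as stranded poly(A) libraries with paired ends, per the labels' protocols. The deposited table holds, for 21926 entries, a whole-number count per gene and library, not scaled between libraries, per the file headers and the values. It also holds FPKM, which the authors scaled by transcript length and depth, per the file headers. No source used here names the aligner, counter, annotation or genome build of the table. Among counts of 40 or less, 28.3% to 36.5% per library are multiples of 4, so totals are not read as numbers of fragments. Library totals ran from 53.6 M to 85.4 M; errors come from how far the 5 libraries of each group differ.

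Groups came from the sample titles. The 11693 genes that reached 1 FPKM in 5 libraries or more were fitted with edgeR 4.0.16 (R 4.3.3), quasi-likelihood with the robust option and TMM factors, 1 term per group, on all 20 libraries. P-values are two-sided and were adjusted by Benjamini-Hochberg over all genes tested, with calls below 0.05. The SE is the log2 fold change divided by the square root of F. Levels in CPM use the TMM factors. Log2 FPKM ratios were compared by exact permutation (scipy 1.17.1), adjusted over 12 tests. Scripts were tested on simulated data.

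The genes and the lists of related genes were chosen with earlier results of these data known. Beside the 7 genes, the text names from each list up to 3 called genes per comparison, by smallest p, and where none was called in ischemia, the 2 with the smallest p, of which some are printed, and a few genes of these lists are not reported here; like genes were ranked by correlation, 3 per member and 5 for the mean, of which the first per member and the 5 are printed. Of the listed genes, Lama3, Hmcn2, Crtap, Mia3, Pecam1, Col1a2, Ttn and Atp2a1 were not analysed here. Egfl7 is in both the component and the endothelial list. Promoter windows are from RefSeq, build GRCr8, where 6 of the 7 genes matched by symbol and Nid2 did not. Alternatives were DESeq2 1.42.0, limma 3.58.1 on log2(FPKM + 1) and log2(FPKM + 0.1), voom with library quality weights, other scaling and filters, only the groups compared, the replicate block, the fibre score and leaving out each library.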

Additional observations from a re-analysis of the deposited data

Results flagged for a closer look

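In sham soleus, library 4 had a Nid2 level of 7.88 CPM, which lay far below the 12.8 to 13.9 CPM of the other 4 libraries for the range of the group. The same library had a log2 ratio of Col4a2 to Col4a1 of -1.19, against -0.62 to -0.55 in the others of its group. These were 2 of 40 groups of 5 values examined for a library far from the rest, and chance flags about 1 in 20 such groups, or 2 of 40. Both are the library that also stood apart in the number of genes detected.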

How the results depend on the processing

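Among alternatives, the number of the 7 genes called in gastrocnemius ischemia was 1 by DESeq2 and 4 by voom with quality weights. In soleus it was 2 by DESeq2, 5 by voom, 5 by limma on log2(FPKM + 1), 2 on log2(FPKM + 0.1), 0 with no filter, 0 with only the groups compared, and 0 to 1 without 1 library. For gastrocnemius against soleus in sham it was 1 by DESeq2, 4 by voom, 2 with the replicate block within treatment (Nid2 0.55, edgeR adjusted p = 0.040; Col4a1 -0.76, adjusted p = 0.038) and 0 to 1 without 1 library. In ischemia it was 5 by voom, 1 each with library totals alone, both limma fits and only the groups compared, and 0 to 1 without 1 library. The fits with more calls among the 7 also called many genes in all. Of 11693 genes, voom called 5267 between muscles in sham, 5105 between muscles in ischemia and 3057 in soleus ischemia. Limma on log2(FPKM + 1) called 1647 in soleus ischemia and 3516 between muscles in ischemia.

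Over all genes, edgeR called 0 in gastrocnemius ischemia, against 11 by DESeq2, 571 by voom and 0 to 6 without 1 library. It called 121 in soleus (51.2% higher), against 227 with RLE factors (43.2% higher), 100 with upper quartile factors (65% higher), 398 with library totals alone (97.2% higher), 1398 by DESeq2, 1647 and 852 by limma, 3057 by voom, 564 with the fibre score, 2 with no filter and 1 to 737 without 1 library. Between muscles the 2911 calls in sham became 5267 by voom, 1387 with only the groups compared, 16 with the fibre score and 2065 to 4136 without 1 library, and library totals alone gave 33.2% of calls higher against 45.7%. The 1473 in ischemia became 5105, 3685, 60 and 849 to 3784, 2633 with library totals alone (16.7% higher against 62.5%), 3516 and 2850 by limma. For the difference between responses, 0 became 2 by DESeq2, 1 with upper quartile factors, library totals, both limma fits and voom, and 0 to 1 without 1 library. Library totals alone moved the median of all genes by 0.34 in soleus, -0.35 between muscles in ischemia and -0.26 in the difference; the 7 genes stayed above it in soleus, with a median of 1.12.

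Signs turned with the fibre score between muscles in sham for Nid1 (1.01), Col4a1 (0.59), Col4a2 (0.45), Lama2 (0.75) and Lama4 (0.70), and in ischemia for Nid1 (0.19), Col4a1 (0.53), Col4a2 (0.30), Lama2 (0.11) and Lama4 (0.39). Nid2 between muscles in ischemia became -0.057 with library totals, -0.050 and -0.056 by limma. Col4a1 in the difference between responses became -0.058 and -0.047 by limma and -0.061 with the fibre score, and ran from -0.058 to 0.47 without 1 library. Lama2 in gastrocnemius became -0.075 by voom and -0.11 with the fibre score, and ran from -0.075 to 0.27 without 1 library. Nid1 between muscles in sham ran from -0.40 to 0.026. Log2 ratios that changed sign without 1 library ran from -0.010 to 0.15 (Col4a2 to Col4a1 in soleus), -0.070 to 0.090 (the same between muscles in sham), -0.055 to 0.29 (Nid2 to Nid1 in gastrocnemius) and -0.065 to 0.059 (Lama4 to Lama2 between muscles in ischemia). The cause was not tested.

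Same-numbered libraries deviated together with a correlation over 0.1 in 2 of 5 pairs across sham muscles and 4 of 5 across ischemia muscles. These correlations cannot settle whether equal numbers mark the same rat, since a pair from 1 rat need not correlate. The main fits therefore leave the pairing out, and fits with it are given as alternatives. One fit had a block per number over all 4 groups, which also ties sham to ischemia libraries of equal number. It called 1 of the 7 genes in soleus ischemia and 0 in each other comparison, as without it. Nid2 in soleus was 1.11 in that fit (edgeR adjusted p = 0.044). The block per number within treatment was fitted only for comparisons that involve both muscles. It called 2 of 7 in sham, Nid2 and Col4a1, 0 in ischemia and 0 for the difference between responses. No other log2 fold change listed for the 7 genes in these alternatives changed sign, apart from the difference between responses for Col4a2 (down to -0.21), Lama4 (down to -0.31) and Lamc1 (up to 0.21).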
